A study of Mus musculus with 6 samples.

Results

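The genes described are the 84 symbols of the deposited mouse count table that name nuclear-encoded subunits of the mitochondrial respiratory complexes, out of 15528 symbols in all. They were taken by name: symbols starting with Ndufa, Ndufb, Ndufc, Ndufs or Ndufv for complex I, Sdha to Sdhd for complex II, Uqcr for complex III, Cox4 to Cox8 for complex IV and Atp5 for complex V, leaving out the assembly factors Ndufaf and Sdhaf and pseudogene symbols. Complex I had 41 of them, complex II 4, complex III 8, complex IV 14 and complex V 17. Both groups of libraries were made from mouse cells that the labels call lymphatic endothelial cells, collected at 24 h. In the RBC group the cells had been exposed to red blood cells, and in the CON group, the control, they had not (3 libraries each). The labels give no strain, passage, sorting or cell dose, and they do not say whether the libraries of a group came from separate cultures, so the p-values reflect only how much these libraries vary, and that variation may be technical. The series title sets the cells in a mouse study of brain injury after subarachnoid hemorrhage and of the neck lymph nodes that drain the brain.

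Respiratory complexes sit in the inner mitochondrial membrane. Complex I takes electrons from NADH and complex II takes them from succinate, both passing them to coenzyme Q; complex III hands them on to cytochrome c and complex IV to oxygen. Complexes I, III and IV pump protons as they do so, and complex V, the ATP synthase, lets the protons flow back to make ATP. Complex II is encoded by the nucleus alone, while the others combine nuclear subunits with a few made inside the mitochondrion. No symbol with the mt- prefix of the mitochondrial genome was in the table used here, so only the nuclear side is described. Endothelial cells are known for drawing much of their ATP from glycolysis, and lymphatic endothelium is known to need complex III for its growth. Mature red blood cells have no mitochondria.

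Promoters of the nuclear subunit genes are known for binding sites of nuclear respiratory factor 1 (NRF1), of ETS factors such as GABP and of YY1. RefSeq promoter windows on mouse build GRCm38.p6, running from 250 bases before to 50 bases after each gene's start, were matched by symbol for 68 of the 84 genes, 67 of them tested below. The palindromic NRF1 motif GCGCATGCGC was found, searching both strands for exact letters, in 5 of these 67 windows (7.46%), against 229 of the windows of 9024 tested genes (2.54%). The YY1 motif AAGATGGC was in 10 windows (14.93%), against 5.66% of the tested genes. The ETS motif CCGGAAG was in 17 windows (25.37%), against 21.65%. None of the 3 motifs contains another of them. A match describes letters in a window and is no measure of binding, and a window without one says only that these letters are not in it.
The stretches of 80 bases that follow show the 4 NRF1 matches that lie before the gene's start, in genes of 3 complexes, and the same stretch before Atp5g3, the only subunit gene that passed the main test below, and only when 1 control library was left out. They are RefSeq sequence of GRCm38.p6, written 5′ to 3′ on the gene's strand, with the NRF1 motif in capitals. Counting the start base as 0, the motif begins at -60 in Ndufa11, at -162 in Cox6a1, at -42 in Atp5g2 and at -50 in Atp5k. The fifth match, in Uqcrc1, lies after the start, and the Atp5g3 window held none of the 3 motifs.
Ndufa11, chr17:56717667-56717746, plus strand: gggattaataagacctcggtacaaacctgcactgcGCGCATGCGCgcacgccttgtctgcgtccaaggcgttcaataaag
Cox6a1, chr5:115349076-115349155, minus strand: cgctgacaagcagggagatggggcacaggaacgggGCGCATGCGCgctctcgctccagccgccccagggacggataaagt
Atp5g2, chr15:102671048-102671127, minus strand: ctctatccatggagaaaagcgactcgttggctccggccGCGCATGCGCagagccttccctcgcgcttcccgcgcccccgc
Atp5k, chr5:108434405-108434484, minus strand: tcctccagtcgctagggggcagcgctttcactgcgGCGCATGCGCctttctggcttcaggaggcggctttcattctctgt
Atp5g3, chr2:73911327-73911406, minus strand: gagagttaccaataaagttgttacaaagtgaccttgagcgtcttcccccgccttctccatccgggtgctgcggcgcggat

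Subunit genes of all 5 complexes were among the more highly expressed genes of these cells. Levels between genes are compared here as the deposited FPKM, fragments scaled to gene model length and library total, averaged over the 6 libraries. Complex V had the highest median level, 159.5 FPKM, followed by complex IV with 158 FPKM over the 11 genes of at least 1 FPKM, complex III with 115, complex II with 99.3 and complex I with 63.8. Among all listed genes these medians correspond to median percentiles between 92.56 for complex I and 97.53 for complex V. The highest gene of complex V was Atp5b, the catalytic beta subunit, with 679 FPKM, and that of complex IV was Cox6b1, a small subunit facing the intermembrane space, with 387 FPKM. Ndufa4, first described in complex I and now known to join complex IV, led the complex I symbols with 237 FPKM, and Uqcrb, the ubiquinone-binding protein, led complex III with 196. Sdhd, a membrane anchor, led complex II with 118 FPKM, and the 4 subunits of that complex stayed within 78.3 to 118 FPKM. Among the subunit symbols of at least 1 FPKM, Ndufb4c was the lowest with 1.77 FPKM. Cox7a1, Cox4i2 and Cox6a2 lay under 1 FPKM.

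**Figure D1:**
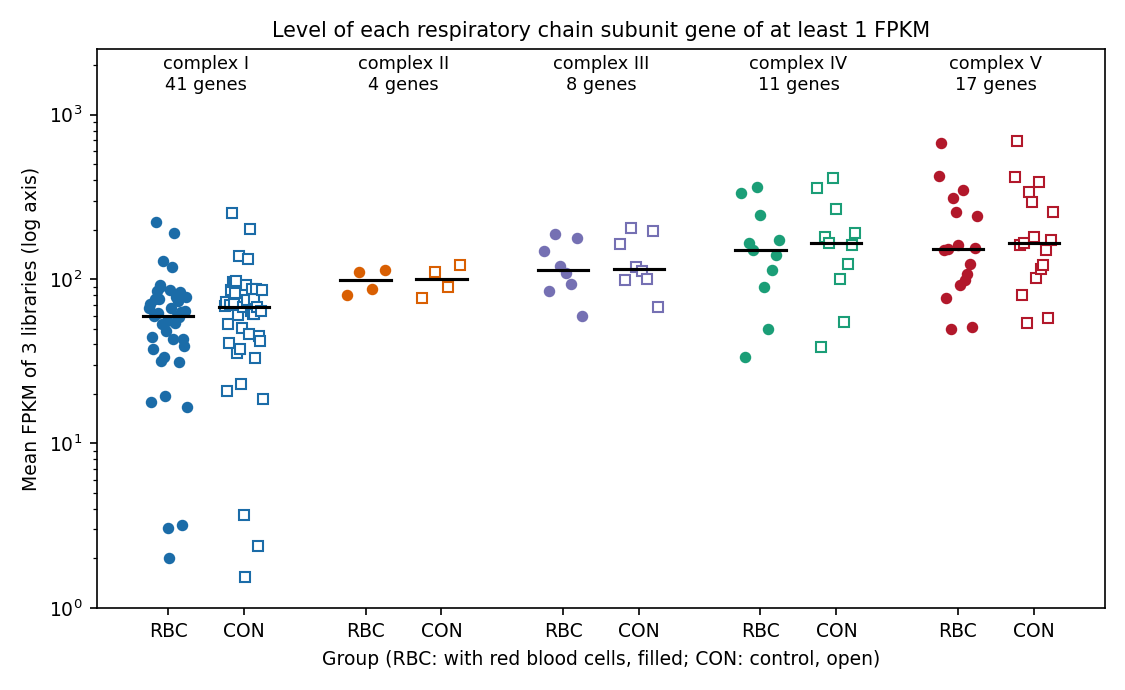
Mean FPKM of each subunit gene of at least 1 FPKM on a log axis, with the RBC group (filled points) left of the CON group (open squares) for each complex; each point is a gene averaged over 3 libraries and black lines are medians over genes. Complexes IV and V hold the highest levels, up to 679 FPKM for Atp5b over all 6 libraries, and 3 complex I symbols lie under 10 FPKM.

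Total counts lay between 17263359 and 18381419 per library. One control library, CON2, stood apart: the mean chi-square per gene between CON2 and the other controls was 28.2 and 26.8, against 1.99 between CON1 and CON3 and 1.73 to 2.13 among RBC libraries. No label marks CON2 as different. The calls and medians of the subunit genes are therefore given with all 6 libraries and without CON2. Some values of single genes are given without CON2 only, and FPKM shares with all 6 libraries only. Red cell transcripts (12 erythroid genes, hemoglobin genes among them) summed to 538 to 624 CPM (counts scaled to the library total) in RBC libraries and to 3.48 to 3.87 CPM in CON libraries. Leukocyte markers (12 of 15 listed) summed to 50.3 to 54.7 CPM in RBC libraries, against 42.1 to 48.6 CPM in CON libraries. Most of that sum was Csf1r (1340 counts over the RBC libraries, 1334 over the CON libraries) and Cd68 (1152 and 1098). Ptprc, the CD45 antigen, had 36 counts over the RBC libraries and 0 over the CON libraries, Cd74 67 and 0, Adgre1 48 and 0, and Ms4a1 20 and 0. Of 6 leukocyte markers tested 4 were called higher. Ptprc, Cd74, Adgre1 and Lyz2 reached the filter's minimum count of 10 only in RBC libraries. A call for them was therefore close to fixed by the filter and is no support beyond the counts. Among all tested genes 1.16% were called higher with 6 libraries and 4.11% without CON2. Of 13 lymphatic markers 8 were listed, at 562 to 594 CPM in RBC libraries and 399.6 to 503 CPM in CON libraries, most of it Nrp2; Prox1 and Lyve1 were not analysed here. Pdpn, a defining lymphatic marker, was near 0, at 0.04 CPM in RBC libraries and 0.11 CPM in CON libraries, as was the endothelial receptor Kdr with 1 count in RBC libraries and 0 in CON libraries. The endothelial antigen Pecam1 averaged 13.7 CPM in RBC libraries and 15.0 CPM in CON libraries. Of 14 pan-endothelial markers 9 were listed, at 116.3 to 119.1 CPM in RBC libraries and 111.1 to 122.98 CPM in CON libraries. Most of that sum was Eng, with means of 98.96 and 99.28 CPM. Cdh5, Tek and Vwf had 11, 3 and 15 counts over the RBC libraries and 7, 3 and 8 over the CON libraries. Among fibroblast markers Col1a2 averaged 448.3 and 464.2 CPM in RBC and CON libraries, while Col1a1 had 4 and 6 counts. Krt8, an epithelial keratin, averaged 389.6 CPM in RBC libraries and 448 CPM in CON libraries. Msln, a mesothelial marker, averaged 190.2 CPM in RBC libraries and 187 CPM in CON libraries. Krt18, another keratin, averaged 32.1 and 44.8 CPM in RBC and CON libraries, while the epithelial marker Cdh1 averaged 0.46 and 0.66 CPM. Krt5 and the mesothelial marker Wt1 each had 1 count over the RBC libraries and 0 over the CON libraries. What part other cells had in the values that follow was not tested.

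After exposure to red blood cells the respiratory chain genes did not pass the test in either direction with all 6 libraries, and their common tilt towards lower values was not seen without CON2 unless a least-squares length correction was applied. Of the 84 genes 81 had enough reads to be tested; Cox4i2, Cox6a2 and Cox7a1 did not. In edgeR's quasi-likelihood test over 11208 genes, with Benjamini-Hochberg adjustment, 0 of the 81 were lower and 0 were higher at an adjusted p under 0.05, where 0.303% of all tested genes were lower and 1.16% were higher. At an unadjusted p under 0.05 there were 6 of them, against 9.99% of all genes, and DESeq2 also called 0 in either direction, where it called 0.598% of all genes lower and 1.51% higher, with 6 of the 81 at an unadjusted p under 0.05 against 7.52% of all genes. Yet 74 of the 81 fold changes were negative, against 50.95% of all genes, and their median log2 fold change was -0.12, against 0.00 over all tested genes. In bulk RNA, fewer cells of a type and less RNA per cell cannot be told apart.

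The summed level of the 84 genes was 9551, 9451 and 9391 CPM in RBC1, RBC2 and RBC3, and 9360.0, 11322 and 9532 CPM in CON1, CON2 and CON3. CON2 alone was high, 19.9% above the mean of CON1 and CON3, while RBC2 and RBC3 lay between CON1 and CON3 and RBC1 just above them. The RBC mean differed by -6.03% from the mean of all CON libraries and by 0.195% from that of CON1 and CON3. By gene, CON2 was above all other 5 libraries in 77 of the 81 tested subunit genes (95.06%), against 35.04% of all tested genes.

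**Figure D2:**
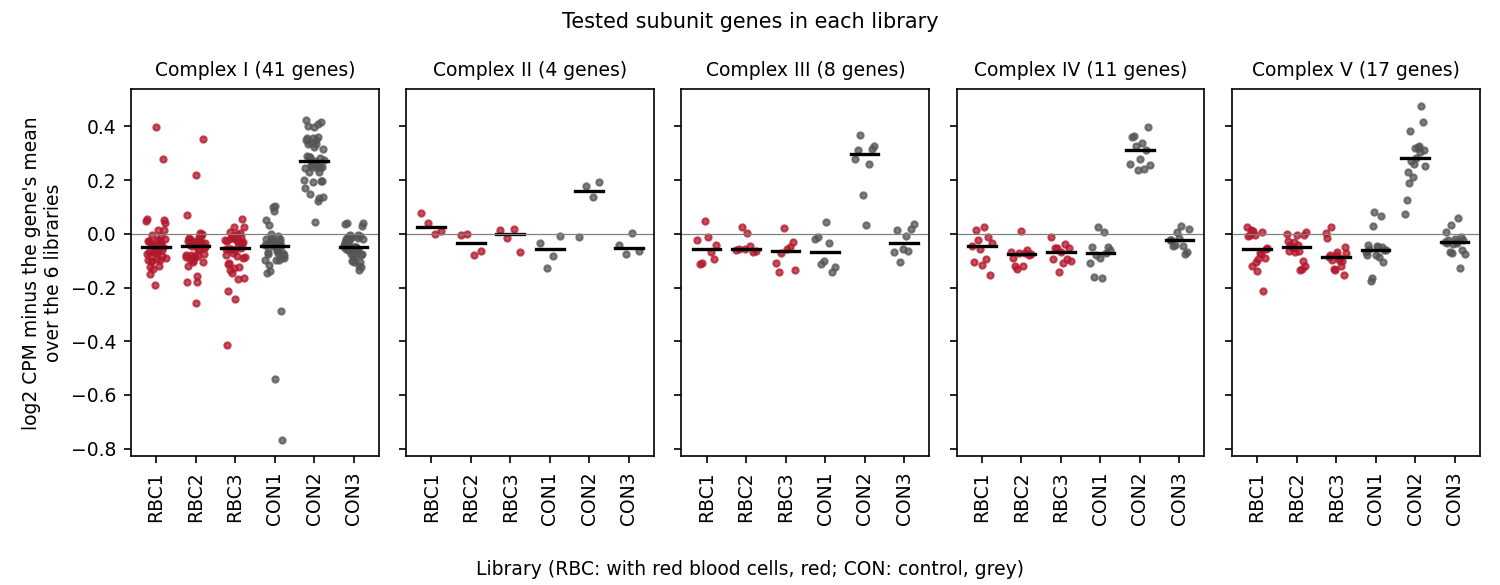
Each point is a tested subunit gene, placed by its log2 CPM in a library minus its own mean over the 6 libraries, with RBC libraries (red) left of CON libraries (grey) and black lines at the medians; panels are the complexes. In every panel the CON2 median is the highest, and the medians of the other 5 libraries lie close together.

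Without CON2, and with no length correction, the median log2 fold change of the 81 genes was -0.01 with 48 negative and 33 positive, against a median of 0.00 and 50.2% negative over all genes. In that comparison of the RBC libraries with CON1 and CON3, 1 of the 81 was lower and 0 were higher, against 3.79% of all tested genes lower and 4.11% higher. At an unadjusted p under 0.05 there were 7, against 19.3% of all genes. The 95% interval of the fold change, from the fitted standard error, lay within a 1.25-fold change in either direction for 78 of the 81, all but Ndufb4b, Ndufb4c and Ndufs6b, against 75.94% of all tested genes. With all 6 libraries it did so for 31 of the 81 and for 59.68% of all genes. Neither share of all genes was matched for expression level, and the subunit genes named as exceptions had few reads. The median interval was 0.43 wide on the log2 scale with 6 libraries and 0.18 without CON2.

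Gene length moved with the CON2 values. The subunit genes are short, with a median gene model of 758 bases against 3390 bases over all listed genes. CON2 exceeded the mean of CON1 and CON3 by a median of 0.32 (log2) over the 81 genes and by 0.01 over all tested genes. Across the 81 genes this excess had a Pearson r of -0.56 with log2 length, and across all 11208 tested genes r was -0.60. Genes of a library share its RNA and its preparation, so these are descriptions over genes and no test. Between CON3 and CON1 the same r was -0.10 over the subunit genes. Other genes of 500 to 750 bases, 176 of them, had a median CON2 excess of 0.34, against 0.39 for the 21 subunit genes of that length. The subunit genes exceeded others of their length more in the longer classes: from 1500 to 2500 bases the median was 0.24 over 16 subunit genes and 0.15 over 2062 others, and from 2500 to 4000 bases 0.18 over 4 and 0.03 over 2824. Without CON2 the median log2 fold change of those 21 was -0.01, and that of the 176 others was -0.01. In the shortest class, under 500 bases, 16 subunit genes had a median of -0.04 and 47 other genes one of 0.03. Whether length, RNA quality or another property of CON2 sets its values was not tested.

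**Figure D3:**
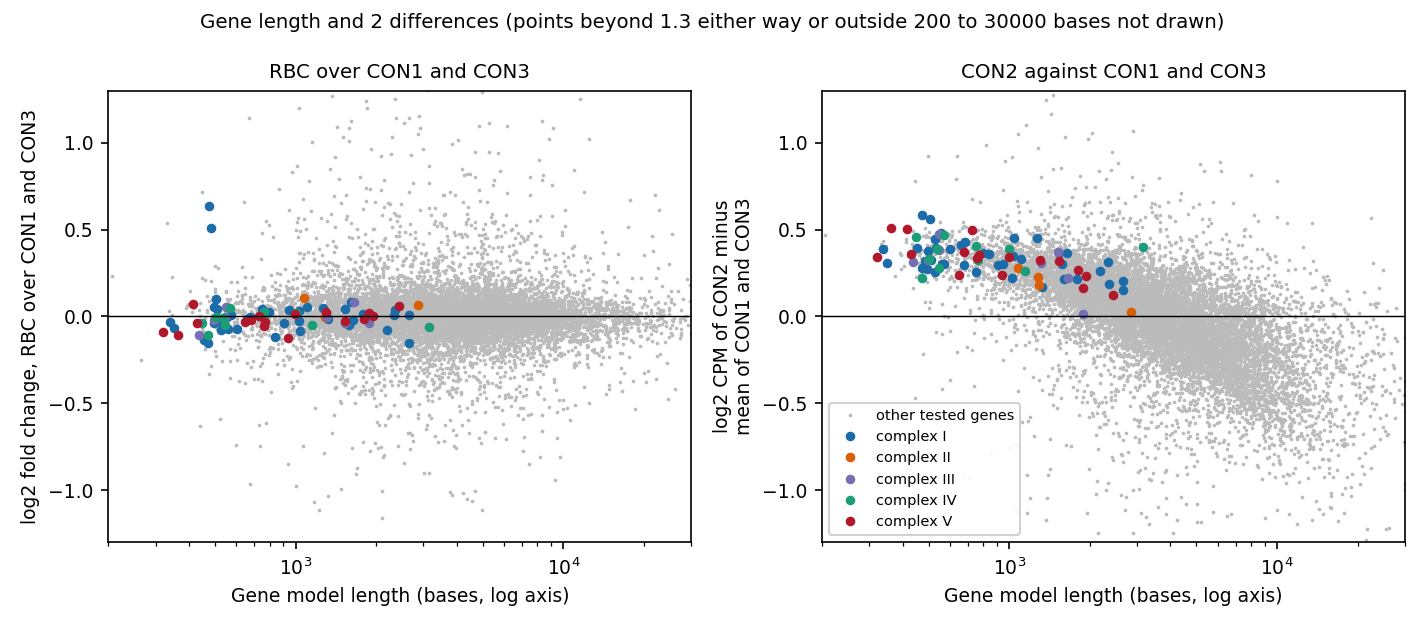
Gene model length in bases on a log axis against the log2 fold change of RBC over CON1 and CON3 (left) and the log2 CPM of CON2 minus the mean of CON1 and CON3 (right); coloured points are the tested subunit genes by complex and grey points the other tested genes. On the right short genes lie high and long genes low, with a median of 0.32 over the subunit genes, and on the left the subunit genes lie around 0, except Ndufs6b and Ndufb4c, which have few reads.

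Complex I, the NADH dehydrogenase, had 0 of its 41 subunits called with 6 libraries and 0 without CON2, with median log2 fold changes of -0.12 and -0.01. The 7 core subunits, which carry the flavin and the iron-sulfur clusters and form the electron path, had a median of -0.06 with 6 libraries and 0.04 without CON2. The 34 accessory subunits had medians of -0.15 and -0.01. Among the core subunits the NADH-binding Ndufv1 had 105, 98.8 and 104 CPM in RBC1 to RBC3, against 96.9, 112.7 and 97.2 CPM in CON1 to CON3. Its RBC libraries were all above CON1 and CON3 and below CON2, and its log2 fold change was 0.01 ± 0.07 (SE) with 6 libraries and 0.08 ± 0.04 without CON2, with adjusted p of 0.973 and 0.262 by edgeR.

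The accessory subunit with the smallest p was Ndufa11, a membrane protein at the junction of the proton-pumping arm. It had 48.6, 45.2 and 48.5 CPM in RBC libraries 1 to 3, against 53.1, 60.7 and 52.6 CPM in CON libraries 1 to 3. All RBC values lay below all CON values, as they did for 10 of the 81 subunit genes and 9.07% of all tested genes. Its log2 fold change was -0.22 ± 0.07 (edgeR adjusted p = 0.311) with 6 libraries and -0.16 ± 0.05 (adjusted p = 0.0548) without CON2. Ndufb4, a subunit of the membrane arm, had 26.4, 26.2 and 23.5 CPM in RBC libraries, against 29.5, 36.6 and 26.3 CPM in CON libraries. RBC1 overlapped with CON3, and the log2 fold change of -0.28 ± 0.12 became -0.14 ± 0.07 without CON2 (edgeR adjusted p 0.474 and 0.279). Of the 50-base stretches of Ndufb4, 37.0% also occur in other reference genes, Ndufb4c among them, so its count is uncertain. Ndufb2, another membrane arm subunit, had -0.25 ± 0.12 and -0.12 ± 0.08 on the log2 scale, neither called.

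The most abundant complex I symbols differed little from CON1 and CON3. Ndufa4 had 107.6, 115 and 108.6 CPM in RBC1 to RBC3, against 112 CPM in CON1, 147 in CON2 and 116 in CON3. Ndufb9, an accessory subunit, had 110.1, 107 and 108 CPM in RBC libraries and 108, 133 and 107 CPM in CON libraries. The RBC values lay around those of CON1 and CON3, and CON2 was the high library for each. Without CON2 the interval of the log2 fold change ran from -0.12 to 0.04 for Ndufa4 and from -0.07 to 0.09 for Ndufb9.

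The widest values in complex I were those of symbols with few reads. Ndufs6b, listed beside the zinc-binding subunit Ndufs6, had 28, 30 and 24 counts in RBC libraries and 13, 27 and 21 counts in CON libraries, overlapping between groups. Its log2 fold change of 0.64 ± 0.30 without CON2 was not called (edgeR adjusted p = 0.22), and 25.4% of its 50-base stretches are shared with Ndufs6. Ndufb4c had 20, 18 and 15 counts in RBC libraries against 10, 16 and 14 in CON libraries, and all of its 50-base stretches occur in other genes (100%). How reads were divided within these pairs is not given in the sources used here, so both are uncertain.

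Complex II, the succinate dehydrogenase, which is also an enzyme of the citric acid cycle, had 0 of its 4 subunits called in either comparison, and its median log2 fold change was -0.01 with 6 libraries and 0.04 without CON2. Its genes are the longest of the set, with a median of 1290 bases. Sdha, the flavoprotein that oxidises succinate, had 235.8, 223 and 225.6 CPM in RBC1 to RBC3, against 219, 222 and 217 CPM in CON1 to CON3. Every RBC value was above every CON value, CON2 included, which held for 1 of the 81 subunit genes and 10.8% of all tested genes. The difference was small, 0.06 ± 0.05 with 6 libraries and 0.07 ± 0.03 without CON2 (edgeR adjusted p 0.708 and 0.294). Sdhb, the iron-sulfur subunit, had 122, 119 and 118 CPM in RBC libraries, against 109, 135 and 113 CPM in CON libraries. Its RBC values lay above CON1 and CON3 and below CON2, and its log2 fold change was 0.01 ± 0.08 with 6 libraries and 0.11 ± 0.04 without CON2 (edgeR adjusted p = 0.0839). The membrane anchors Sdhc and Sdhd had log2 fold changes of 0.02 ± 0.04 and -0.01 ± 0.04 without CON2. The summed complex II level was 624, 594 and 603 CPM in RBC libraries, against 585, 654 and 589 CPM in CON libraries, so the RBC mean differed by 3.36% from that of CON1 and CON3 and by -0.44% from that of all CON libraries.

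Complex III, the cytochrome bc1 complex, had 0 of its 8 subunits called in either comparison, with medians of -0.13 and -0.01. The summed level was 930.4, 929 and 918 CPM in RBC libraries and 916, 1109 and 931 CPM in CON libraries. The small subunits lay lowest with 6 libraries, from -0.22 to -0.12, and between -0.11 and 0.06 without CON2. Uqcr11, the smallest of them, had 36.8, 38.3 and 36.1 CPM in RBC libraries and 39.6, 49.5 and 40.2 CPM in CON libraries. All RBC values lay below all CON values, and the log2 fold change was -0.22 ± 0.09 with 6 libraries and -0.11 ± 0.06 without CON2 (edgeR adjusted p 0.470 and 0.323). Uqcrb had 98.9, 108 and 101 CPM in RBC libraries and 98.7, 138 and 99.2 CPM in CON libraries, with CON2 alone far from the rest. Uqcrq, which sits beside cytochrome b, and Uqcr10, a small membrane subunit, had -0.04 ± 0.05 and -0.02 ± 0.05 without CON2, and Uqcrh, the hinge protein at the cytochrome c site, 0.00 ± 0.04.
The core proteins, large subunits on the matrix side, differed from the small ones in how far CON2 stood off. Uqcrc2 had 207, 208 and 199.8 CPM in RBC libraries and 214, 213 and 207 CPM in CON libraries, with CON2 between the other controls. Uqcrc1 had 204, 189.8 and 200.4 CPM in RBC libraries and 184, 218 and 189.7 CPM in CON libraries, and its log2 fold change without CON2 was 0.08 ± 0.04 (edgeR adjusted p = 0.162). Uqcrfs1, the Rieske iron-sulfur protein, had -0.11 ± 0.09 with 6 libraries and 0.00 ± 0.04 without CON2.

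Complex IV, the cytochrome c oxidase, was the complex in which every tested subunit had a negative fold change with 6 libraries, 11 of 11, with a median of -0.15. CON2 was the highest library in each of the 11. None was called with 6 libraries and none without CON2, where 8 of 11 were negative with a median of -0.01. Cox6b1 had 175, 173 and 165 CPM in RBC1 to RBC3, against 185, 214 and 182 CPM in CON1 to CON3. The groups did not overlap with or without CON2, and the log2 fold change was -0.18 ± 0.07 with 6 libraries and -0.10 ± 0.04 without CON2 (edgeR adjusted p 0.435 and 0.0607). Cox5a, the subunit that binds thyroid hormone T2 and lines the matrix side, had 105, 106 and 106 CPM in RBC libraries and 109, 145 and 111 CPM in CON libraries. Its RBC values were all below the lowest control, by little, and its log2 fold change without CON2 was -0.06 ± 0.04. Cox4i1, the largest nuclear subunit, which carries the site where ATP slows the enzyme, had 255, 251 and 261 CPM in RBC libraries and 244, 315 and 259 CPM in CON libraries, overlapping with CON1 and CON3 and with an interval from -0.04 to 0.09 without CON2.

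Several complex IV subunits exist as alternative forms, and the ubiquitous one dominated in every library. Cox4i2, the form known from lung and from low oxygen, had 6 counts over the RBC libraries and 6 over the CON libraries. It made up between 0% and 0.07% of the summed Cox4 FPKM of a library, the rest being Cox4i1. Cox6a2, the heart and muscle form, had 2 and 2 counts, and Cox6a1 made up at least 99.92% of the pair's summed FPKM in every library. Cox7a1, another heart and muscle form, had 13 counts over the RBC libraries and 4 over the CON libraries, too few to be tested. Cox7a2 held 64.2% ± 1.58 of the summed Cox7a FPKM in RBC libraries and 64.4% ± 2.39 in CON libraries (SD, n = 3 each). Cox7a2l, known for joining complexes III and IV into supercomplexes, held 35.4% ± 1.69 and 35.5% ± 2.32 of that FPKM. Cox6a1, Cox7a2, Cox7b and Cox8a had log2 fold changes between -0.05 and 0.02 without CON2. Cox6b2, Cox7b2, Cox8b, Cox8c and Ndufa4l2, further alternative forms, were not analysed here.

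Complex V, the ATP synthase, held the one subunit gene that passed the test in either comparison. Atp5g3, one of 3 genes that encode the same c subunit of the rotating membrane ring, had 240.3, 246 and 235 CPM in RBC1 to RBC3, against 273, 309 and 252 CPM in CON1 to CON3. No RBC value reached the lowest control, and CON2 was the highest library. With 6 libraries the log2 fold change was -0.21 ± 0.08 (edgeR adjusted p = 0.391). Without CON2 it was -0.12 ± 0.03 (adjusted p = 0.0133), 0.92 of the level in CON1 and CON3, with an interval from -0.19 to -0.05. The other c-subunit genes did not pass: Atp5g2 had -0.03 ± 0.04 and Atp5g1 0.02 ± 0.06 without CON2. With 6 libraries Atp5g2 had -0.11 ± 0.08 and Atp5g1 -0.10 ± 0.10. Atp5g3 gave 41.4% ± 0.82 of the summed c-subunit FPKM in RBC libraries and 43.0% ± 0.49 in CON libraries (SD, n = 3 each). Atp5g2 had the largest FPKM share, 50.5% ± 0.73 in RBC libraries and 49.2% ± 0.32 in CON libraries.

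Of the 17 complex V genes 16 had negative fold changes with 6 libraries, with a median of -0.14, and 10 without CON2, with a median of -0.02. The 5 subunits of the catalytic head had a median of -0.07 with 6 libraries, 4 of them negative, and of 0.02 without CON2. Atp5b had 1265, 1249.6 and 1259.7 CPM in RBC libraries, against 1207, 1389 and 1279 CPM in CON libraries, and its interval without CON2 ran from -0.04 to 0.08. Atp5a1, the alpha subunit, had 1042, 1024 and 1027 CPM in RBC libraries and 977, 1079 and 1003 CPM in CON libraries. For both, CON2 was the highest library; the RBC values of Atp5a1 lay above CON1 and CON3, with a log2 fold change of 0.06 ± 0.03 (edgeR adjusted p = 0.253) without CON2. The 4 genes of the peripheral stalk, which holds the head still, had a median of -0.15 with 6 libraries and -0.03 without CON2.
The small membrane subunits, which shape the dimer that bends the cristae, had the lowest median of the complex, -0.18 with 6 libraries over 5 genes and -0.05 without CON2, none called. Atp5md, needed to keep dimers together, had 42.3, 45.7 and 45.8 CPM in RBC libraries, against 47.4, 68.3 and 48.7 CPM in CON libraries. All RBC values lay below all CON values and CON2 lay far above the rest, with log2 fold changes of -0.30 ± 0.13 with 6 libraries and -0.11 ± 0.05 without CON2 (edgeR adjusted p 0.497 and 0.269). Atp5k, the e subunit, had 32.3, 31.0 and 31.9 CPM in RBC libraries and 32.0, 42.7 and 35.4 CPM in CON libraries, with -0.21 ± 0.10 and -0.09 ± 0.06. Atpif1, the inhibitor that stops the synthase from running backwards, lies outside the 84 genes and had 90.7, 86.3 and 98.5 CPM in RBC libraries against 92.8, 125.7 and 98.6 CPM in CON libraries, without a call.

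**Figure D4:**
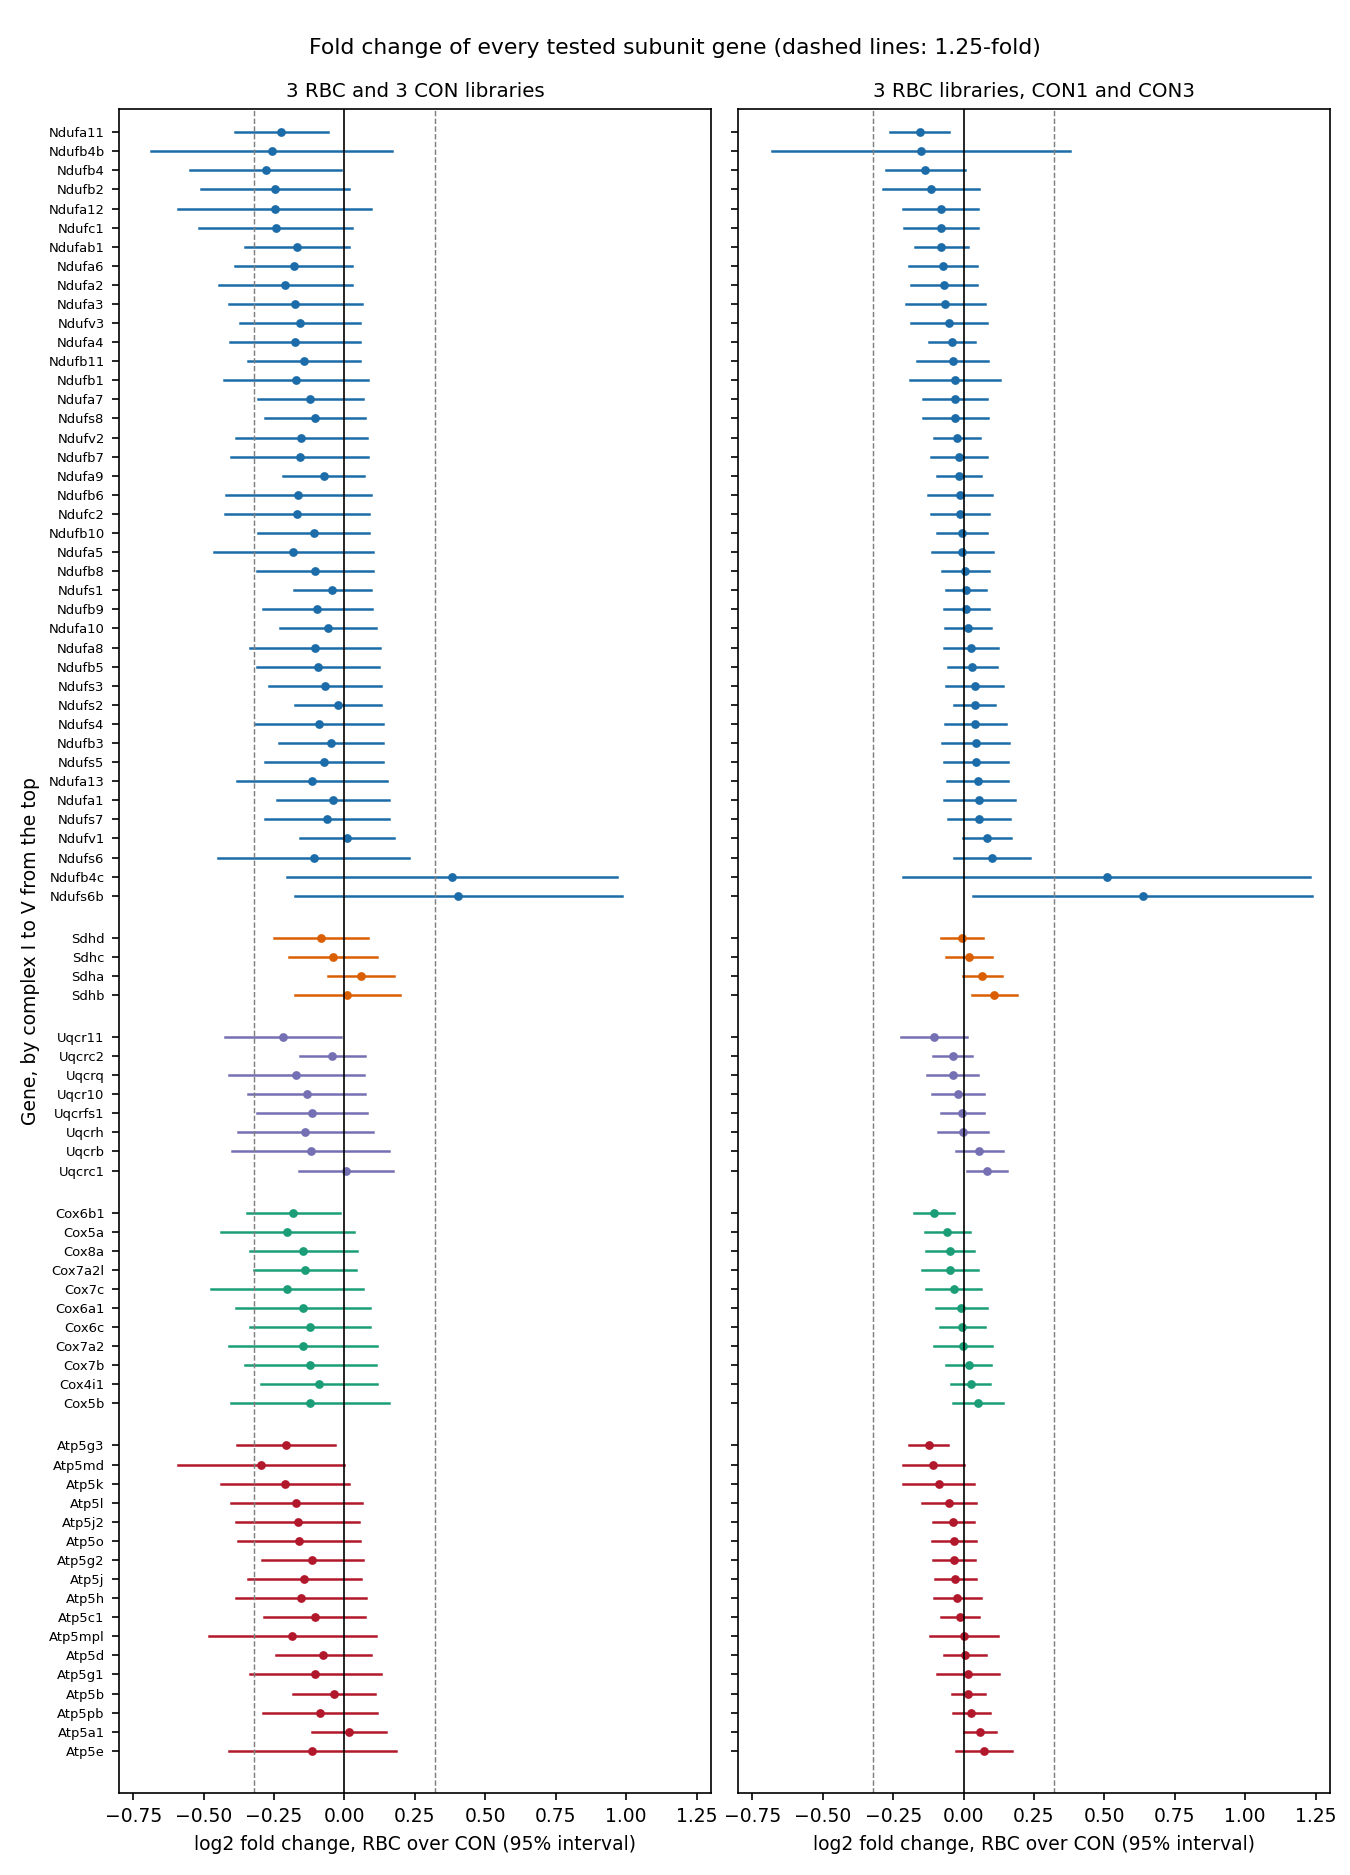
Log2 fold change of RBC over CON for each of the 81 tested subunit genes (points) with its 95% interval (lines), from all 6 libraries on the left and without CON2 on the right; colours and gaps separate complexes I to V from the top, and dashed lines mark a 1.25-fold change. With 6 libraries most points lie left of 0 with wide intervals, and without CON2 they gather around 0 with 78 of 81 intervals inside the dashed lines.

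Correcting the counts for each library's own trend with gene length also moved the subunit genes towards 0 while keeping all 6 libraries. With that correction their median was -0.02 and 0 were called, where 1.09% of all tested genes were lower and 1.94% higher, and with length and GC content together the median was -0.03 with 0 called, where 1.16% were lower and 1.96% higher. Negative fold changes numbered 55 of the 81 subunit genes with the length correction and 58 with length and GC content. Uncorrected there were 74, so a weaker tilt remained. With the length correction and without CON2, 2 were lower, against 3.78% of all genes, and 0 higher, against 4.34%. They were Atp5g3 (-0.13, edgeR adjusted p = 0.00786) and Ndufa11 (-0.16, adjusted p = 0.0462). A least-squares form of the trend, chosen after seeing the data, gave 11 lower genes without CON2, against 5.07% of all genes, and 0 higher, against 3.85%. That form subtracted a median of 0.08 (log2) from the subunit genes, where the robust form subtracted 0.00. From 223 other genes under 750 bases the medians subtracted were 0.09 and 0.00. The further calls were not made with the robust form, and why was not tested. With the least-squares form and without CON2 the tilt was present, with 70 of 81 fold changes negative against 55.53% of all genes. The median was -0.08.

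Genes that build and feed the respiratory chain were read in the same way. With 6 libraries 0.303% of all tested genes were lower and 1.16% higher, and without CON2 3.79% were lower and 4.11% higher. Among 50 listed assembly factors 0 were called with 6 libraries. Without CON2 1 was lower, against that 3.79% of all tested genes, namely Higd1a, a hypoxia-induced protein that binds complex IV. It had 52.5, 57.0 and 51.2 CPM in RBC libraries and 60.9, 77.4 and 63.5 CPM in CON libraries, so the groups did not overlap, and its log2 fold change was -0.33 ± 0.10 with 6 libraries and -0.22 ± 0.05 without CON2 (edgeR adjusted p 0.234 and 0.00235). None of the 18 genes of electron carriers and coenzyme Q synthesis and none of the 17 pyruvate dehydrogenase and citric acid cycle genes was called in either comparison. The counts at an unadjusted edgeR p under 0.05 were 2 and 0 with 6 libraries, against 9.99% of all tested genes. Without CON2 they were 4 and 0, against 19.3% of all tested genes. DESeq2 also called 0 in both lists with 6 libraries. Among 29 genes of the mitochondrial membranes, import and carriers 0 were called with 6 libraries. Without CON2 1 was lower, against 3.79% of all tested genes, namely Tomm6, a small subunit of the outer membrane import pore. Tomm6 had 77.1, 70.2 and 74.0 CPM in RBC libraries and 80.7, 96.8 and 86.0 CPM in CON libraries, and a log2 fold change of -0.18 ± 0.05 without CON2 (edgeR adjusted p = 0.00718).

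Of 20 regulators of mitochondrial biogenesis and transcription 0 were called with 6 libraries. Without CON2 1 was higher, against 4.11% of all tested genes. It was Ppargc1a, the coactivator PGC-1alpha that drives respiratory genes together with NRF1. It had 33.7, 35.5 and 35.9 CPM in RBC libraries and 30.1, 20.7 and 30.9 CPM in CON libraries. Every RBC value was above every CON value and CON2 was the low library, the opposite side from the short subunit genes. The log2 fold change was 0.37 ± 0.13 with 6 libraries (edgeR adjusted p = 0.379) and 0.20 ± 0.06 without CON2 (adjusted p = 0.0311).

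Mitochondrial genes under the hypoxia-inducible factor HIF include ones that earlier results of these data already showed as lower, so their direction is not independent evidence. Of 9 on that list 7 were tested, and 1 (Bnip3) was lower with 6 libraries, against 0.303% of all tested genes. Without CON2 5 were lower, against 3.79% of all tested genes, and the median was -0.22. These 5 were Bnip3, Bnip3l, Pdk1, Higd1a and Ldha, of which Bnip3l was chosen for naming after its values were seen. Bnip3 had a log2 fold change of -0.53 ± 0.10 with 6 libraries (edgeR adjusted p = 0.034) and -0.43 ± 0.05 without CON2 (adjusted p = 1.24e-09). Ldha had -0.32 ± 0.07 with 6 libraries (edgeR adjusted p = 0.0909) and -0.24 ± 0.03 without CON2 (adjusted p = 3.22e-10). Pdk1, the kinase that keeps pyruvate out of the citric acid cycle, had 140.0, 142 and 132 CPM in RBC libraries, against 166, 169.5 and 164 CPM in CON libraries, with CON2 close to the other controls. Its log2 fold change was -0.27 ± 0.05 with 6 libraries (edgeR adjusted p = 0.0536) and -0.26 ± 0.04 without CON2 (adjusted p = 3.32e-07). Bnip3l, a mitophagy receptor known for clearing mitochondria from maturing red cells, had 52.2, 51.1 and 50.1 CPM in RBC libraries and 60.9, 58.6 and 56.0 CPM in CON libraries, with a log2 fold change of -0.19 ± 0.05 without CON2 (edgeR adjusted p = 0.00801). The difference between this list and the subunit genes was not tested.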

How the data were processed

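The authors deposited 2 tables of the same 6 poly(A) libraries, one of raw counts per gene symbol and one of FPKM values scaled to each library's listed counts, as their ratio showed. TRIzol extraction and a stranded mRNA library kit were used, per the labels' protocols, and build GRCm39 is named in the submitters' processing notes. Aligner, counting and strand setting: not given in the sources used here.

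The main test was the quasi-likelihood test of edgeR 4.0.16 (R 4.3.3) on the deposited counts: filterByExpr (minimum count 10, minimum total 15) kept 11208 genes, libraries were scaled by TMM, and p-values were two-sided and adjusted by Benjamini-Hochberg over all tested genes, called under 0.05. CPM are counts scaled to the total of listed counts; SD is over 3 libraries. Gene model length came from counts over FPKM, GC content and shared 50-base stretches from GENCODE transcripts matched by symbol (83 of 84 genes). FPKM were tested with limma 3.58.1 on log2(FPKM + 1). Depth limits low genes: 3 counts are 0.16 to 0.17 CPM, counting error only.

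Genes named in full are, in each complex, the 3 with the smallest p and the 2 with the highest FPKM, genes called in either comparison, the alternative forms, and 3 per related list; others were chosen with their values known. The members and lists were chosen with earlier results of these data known. Alternatives were RLE or no scaling, DESeq2 1.42.0, voom with and without quality weights, 2 other filters, the replicate block, leaving out each library, length and GC corrections, and leaving out erythroid genes. The steps were tested on simulated data.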

Additional observations from a re-analysis of the deposited data

How the results depend on the processing

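With 6 libraries 34 genes were lower and 130 higher over all genes, and 0 of the 81 subunit genes in either direction. The median of all subunit genes and those of complexes I, III, IV and V were negative under every setting run. The complex II median, -0.01 with 6 libraries, was between 0.02 and 0.05 with quality weights, without CON2 and under the length corrections, and 0.00 without RBC2. The complex I core and ATP synthase head medians, -0.06 and -0.07, were 0.04 and 0.02 without CON2 and 0.01 and 0.01 with the length correction. The subunit counts stayed at 0 under RLE scaling, no scaling, DESeq2, voom with or without quality weights, both other filters, the length and length-and-GC corrections and without erythroid genes. The genes lower over all genes numbered 67 by DESeq2, 289 with quality weights, 122 with the length correction, 130 with length and GC, 424 with length and without CON2, 147 with the least-squares length trend and 568 with that trend and without CON2. The genes higher numbered 362, 217, 220, 486, 199 and 431 under the same settings other than DESeq2. With 1 library left out, the genes lower ranged between 2 and 425 and the genes higher between 60 and 461. Subunit genes lower numbered between 0 and 1 with 1 library left out (1 without CON2), 2 with length and without CON2, 1 with the least-squares trend (Atp5md) and 11 with it and without CON2, where the subunit median was -0.08. The cause was not tested. The subunit median ranged between -0.20 (without CON1) and -0.01 (without CON2) with 1 library left out, and of the named genes 7 had the other sign without CON2. On the FPKM table, 0 subunit genes were called with pseudocounts of 1 or 0.1, without a filter or without CON2, with medians of -0.12, -0.12, -0.11 and -0.01. The least-squares trend and the FPKM values without CON2 were chosen after seeing the data. Deviations from the group means had correlations of -0.08, 0.03 and 0.12 between same-numbered RBC and CON libraries. Between other-numbered ones they ran from -0.10 to 0.06. With so few libraries per group and CON2 apart, these values cannot decide whether replicate numbers mark a shared batch. With the replicate block 13 genes were lower, 113 higher and 0 subunit genes either way.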

Other observations

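Ribosomal protein genes, short and highly expressed like the respiratory chain genes, were set beside them. Of 94 tested cytosolic ribosomal protein genes 0 were called with 6 libraries, with a median log2 fold change of -0.10, and CON2 was above all other libraries in 84 of them. At an unadjusted p under 0.05 there was 1, against 9.99% of all tested genes. DESeq2 also called 0, with 1 at an unadjusted p under 0.05 against 7.52% of all tested genes. Without CON2 the median was 0.02 and 4 were higher, against 4.11% of all genes. They were Rpl3 (0.12 ± 0.03 SE, edgeR adjusted p = 0.00461), Rpl30 (0.12 ± 0.04, 0.0217), Rpl34 (0.31 ± 0.07, 0.00112) and Rps9 (0.12 ± 0.03, 0.0156), named after their values were seen. With the least-squares length correction and without CON2, 2 were higher and 18 lower, against 3.85% and 5.07% of all genes, with a median of -0.04. Reads of ribosomal protein genes can be shared with pseudogene copies. The 98 listed genes summed to 46544, 46115 and 46086 CPM in RBC1 to RBC3, against 44881, 56976 and 46142 CPM in CON1 to CON3.

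The 78 mitochondrial ribosomal protein genes, which translate the subunits encoded inside the mitochondrion, had 0 called in either comparison. With 6 libraries 1 had an unadjusted p under 0.05 by edgeR, against 9.99% of all tested genes, and 1 by DESeq2, against 7.52%. Without CON2 there were 4 by edgeR, against 19.3% of all tested genes. Their median was -0.10 with 6 libraries and 0.00 without CON2. They summed to 4244, 4268 and 4248 CPM in RBC1 to RBC3, against 4169, 5125 and 4288 CPM in CON1 to CON3, with CON2 again the highest library.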
